A study of Mus musculus with 4 samples.

Results

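The mitochondrial ribosomal protein genes were taken as the protein-coding genes of the table whose symbol begins with Mrpl or Mrps followed by a number. This rule uses no measured value and gave 77 genes among the 29300 of the table, 48 Mrpl genes named for the large subunit and 29 Mrps genes named for the small subunit. Hippocampi of C57BL/6 male mice aged 7 to 8 months were collected on day 1 after the operation, and RNA was sequenced from 2 mice per group. Control mice received isoflurane anesthesia and tramadol analgesia without fracture. Surgery mice received the same anesthesia and analgesia, followed by an open tibial fracture fixed with an intramedullary nail, and serve as a mouse model of perioperative neurocognitive disorder (PND). The comparison asks how surgical trauma changes hippocampal transcripts. Anesthesia and tramadol were common to both groups, so neither is tested by it.

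The mitochondrial ribosome (mitoribosome) sits in the matrix and translates the few mRNAs of the mitochondrial genome, whose products are core subunits of the respiratory chain and of ATP synthase. Its 2 rRNAs come from mitochondrial DNA, while all of its proteins are encoded in the nucleus, made in the cytosol and imported. Some of these proteins descend from bacterial ribosomal proteins, and others exist only in mitochondria. Neurons depend on oxidative phosphorylation, and inherited defects of mitoribosomal proteins can affect the brain. In bulk tissue such as this, fewer cells of a type and less RNA per cell cannot be told apart.

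Between 15763432 and 18573386 reads were counted per library. All 77 members passed the filter on low counts, which left 17144 genes for testing. Markers of hippocampal principal neurons were detected in every library, with a summed level of 1224 and 1126 CPM (read counts scaled to a common library size) in the control mice and 1291 and 1153 CPM in the surgery mice. Of these 8 markers 2 were higher and 2 lower by the test given below. Of 8 general neuron markers 1 was higher and 2 lower. They summed to 6396 and 6204 CPM in control mice and 5999 and 5654 CPM in surgery mice. Of 7 astrocyte markers 3 were higher and 2 lower, where 13.1% and 12.8% of all genes were. A choroid plexus marker list of 6 genes varied widely, at 127 and 5407 CPM in control mice 1 and 2 and at 2031 and 3452 CPM in surgery mice 1 and 2. None of these 6 genes was at 0 in any library or passed the test. In surgery mouse 2, oligodendrocyte markers were lower, at 4030 CPM beside 5468 to 6335 CPM in the other mice, and endothelial markers higher, at 310 CPM beside 212 to 232 CPM. The part of these cell types in the results below was not tested, and the calls of the members are therefore also given with single mice left out. Messenger RNAs of the mitochondrial genome made up 2.82% and 2.52% of the reads counted in control mice, and 4.44% and 4.48% of those in surgery mice.

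Mitoribosomal protein transcripts moved in both directions after surgery, more often down than up. By the quasi-likelihood test of edgeR, with p adjusted over all genes by the Benjamini-Hochberg method, 14 members fell and 4 rose at an adjusted p below 0.05, and 59 did not pass. The 14 that fell are 18.2% of the members, against 12.8% of all genes tested and 14.8% of the 14602 protein-coding genes among them. The 4 that rose are 5.19% of the members, against 13.1% of all genes and 13.8% of the protein-coding genes. In either direction 18 members passed, or 23.4%, beside 26% of all genes and 28.6% of the protein-coding genes. The share of members that changed was thus not above that of the transcriptome. The large subunit supplied 10 of the genes that fell and all 4 that rose. Of the 29 small subunit genes, 4 fell and 0 rose in this test, and 8 of the 29 (27.6%) had an unadjusted p below 0.05 in either direction, beside 39.4% of all genes. DESeq2 likewise called no small subunit gene higher.

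The changes were mostly modest. With the fold limits of 1.5 and 0.67 added, 3 members were higher (Mrpl1, Mrpl32 and Mrpl50), against 6.75% of all genes, and 3 were lower (Mrpl12, Mrpl14 and Mrps24), against 2.25% of all genes. Without control mouse 2 only 1 was higher by this rule, and without surgery mouse 1 there were 5 lower. The median log2 fold change was -0.14 over the large subunit and -0.05 over the small subunit. It was 0.01 over all genes tested and -0.01 over the protein-coding genes among them. Of the 77 values, 50 were negative. Levels of both surgery mice lay below those of both control mice for 37 members and above them for 16, while 32.2% and 33.2% of all genes did so. The members' share in the downward direction was thus above the background and in the upward direction below it. Set against the control mean, the median log2 level of the large subunit genes was -0.09 in surgery mouse 1 and -0.16 in surgery mouse 2. For the small subunit the same medians were 0.00 and -0.16, the latter in the mouse with fewer oligodendrocyte and more endothelial marker reads. Its median log2 fold change turned to 0.0011 with scaling by library totals and to 0.0070 without surgery mouse 2.

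**Figure D1:**
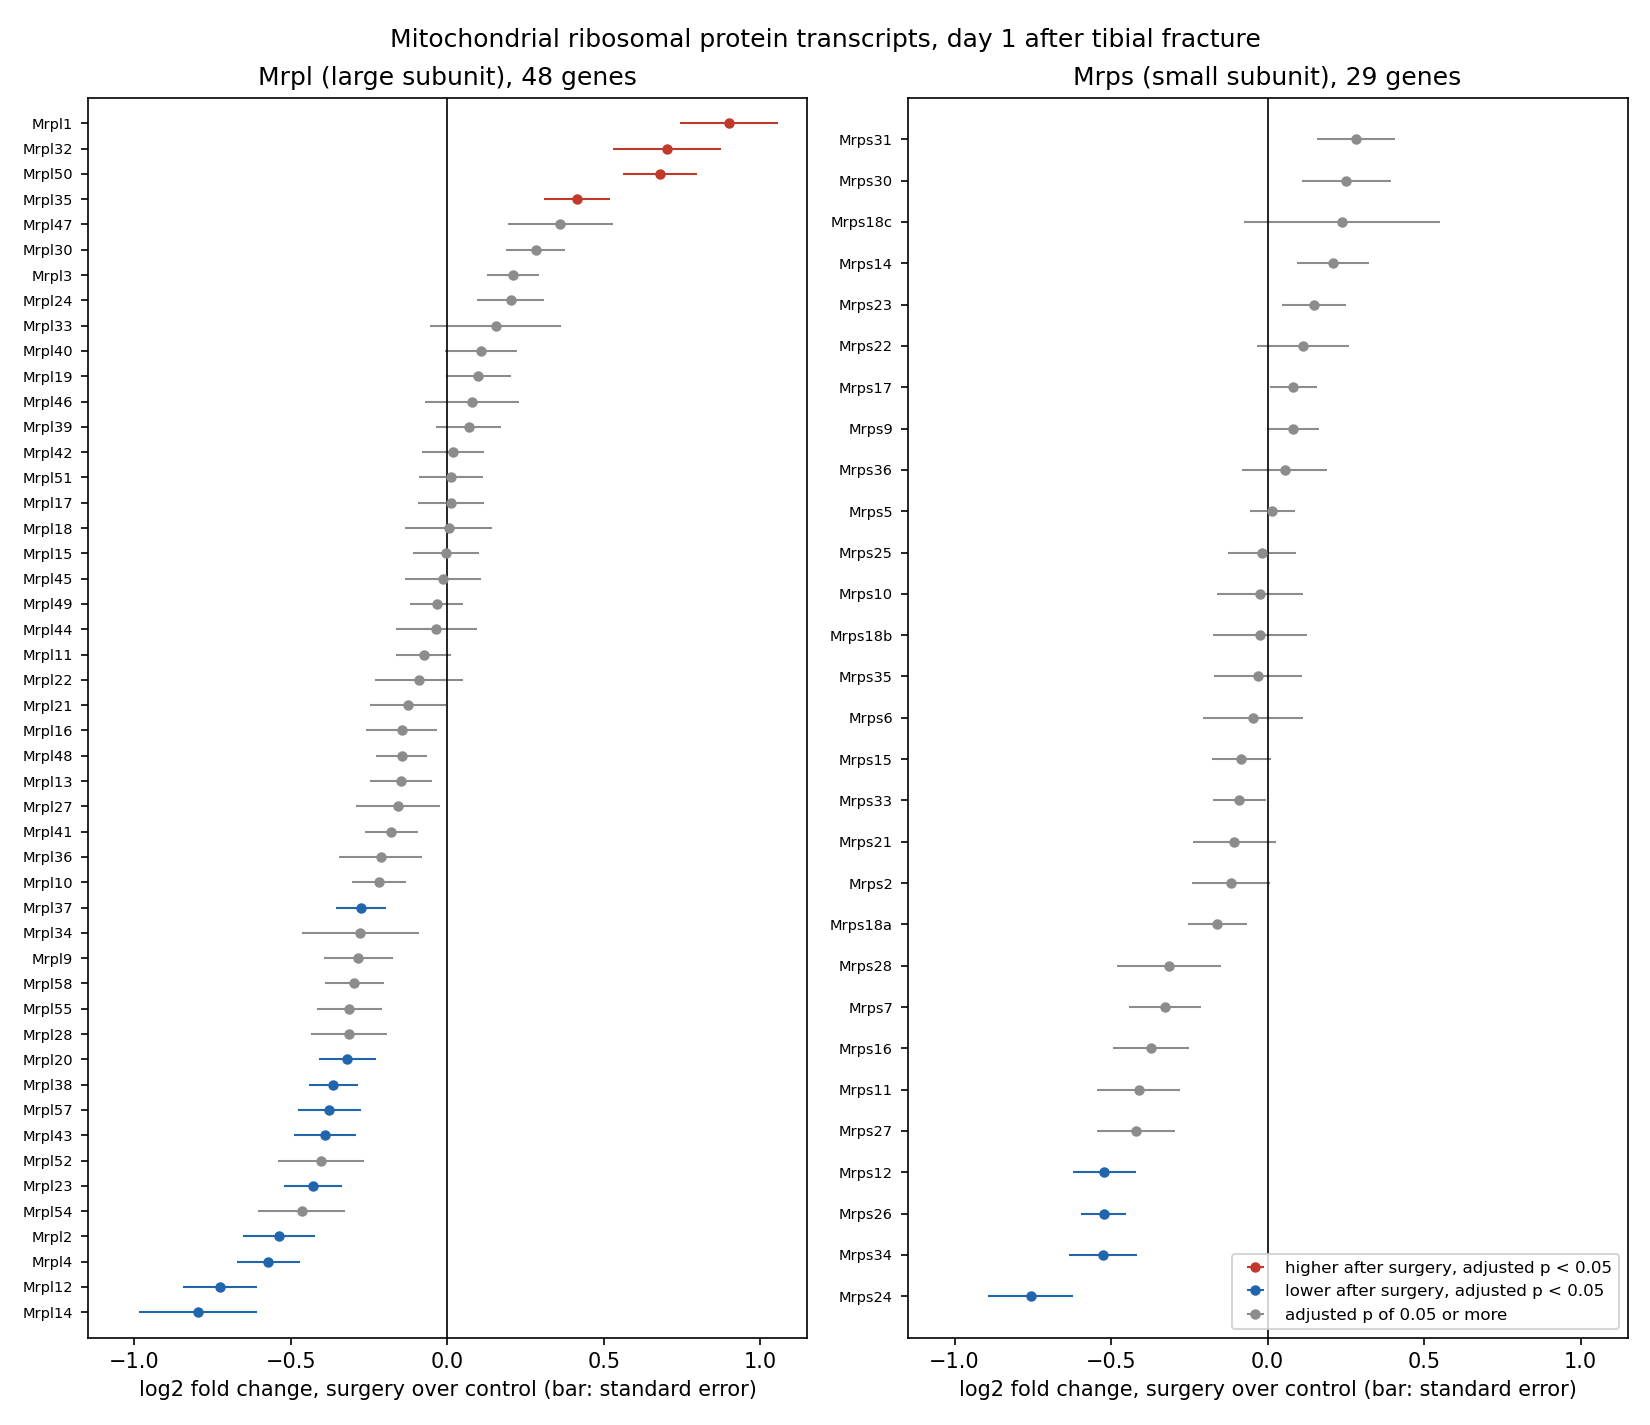
Log2 fold change (surgery over control, x axis) with its standard error for each of the 48 Mrpl genes (left) and 29 Mrps genes (right), with 2 mice per group. Blue marks the 14 genes that fell, red the 4 that rose and grey the 59 that did not pass the test, and the red genes all lie in the left panel.

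The lowest log2 fold changes of the large subunit were those of Mrpl14 and Mrpl12. Mrpl12, which encodes the stalk protein that recruits translation factors, was at 21.5 and 23.9 CPM in the control mice and at 13.5 and 13.9 CPM in the surgery mice. Mrpl14, encoding a protein at the interface between the subunits, was at 8.88 and 7.66 CPM in control mice and 4.77 and 4.74 CPM after surgery. In both genes the surgery mice were close to each other and well below the control mice. The log2 fold change was -0.73 ± 0.12 (SE, n = 2 mice per group) for Mrpl12, with an edgeR adjusted p of 0.008, and -0.80 ± 0.19 for Mrpl14, with an edgeR adjusted p of 0.0252. Part of the Mrpl12 and Mrpl14 exons overlaps a gene on the opposite strand (13.1% with Gm16755 and 11.2% with Tmem63b), and reads of the partners cannot be told apart if the counting ignored strand.

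Mrpl4 and Mrpl23 encode proteins of the peptide exit tunnel, and Mrpl2 encodes a protein near the catalytic centre. Mrpl4 was at 62.6 and 60.7 CPM in the control mice and at 45.1 and 37.9 CPM in the surgery mice. Mrpl2 was at 31.9 and 36.4 CPM in control mice and 22.1 and 25.0 CPM after surgery. Mrpl23 was at 30.1 and 31.4 CPM in control mice and 23.2 and 22.5 CPM after surgery. The 3 genes show no overlap between groups, where 32.2% of all genes tested had both surgery mice below both control mice. Their log2 fold changes were -0.57 ± 0.10, -0.54 ± 0.12 and -0.43 ± 0.09 (SE) in the order named, with edgeR adjusted p of 0.0101, 0.0187 and 0.0199.

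The remaining large subunit genes that fell changed less, and the calls of Mrpl20, Mrpl37 and Mrpl57 were lost with DESeq2, with scaling by library totals and without the filter on low counts. Mrpl20, which has a bacterial counterpart, was at 36.6 and 39.5 CPM in control mice and 31.4 and 29.6 CPM in surgery mice. Mrpl37, Mrpl38, Mrpl43 and Mrpl57 encode proteins with no bacterial counterpart. Their levels were 58.9 and 54.7 CPM in control mice against 47.7 and 46.1 CPM for Mrpl37, and 60.3 and 65.3 CPM against 48.2 and 49.2 CPM for Mrpl38. For Mrpl43 they were 35.9 and 40.3 CPM against 30.1 and 28.1 CPM, and for Mrpl57 26.8 and 25.3 CPM against 19.7 and 20.4 CPM. All 5 genes had both surgery mice below both control mice, as did 32.2% of all genes tested. The log2 fold changes ran from -0.39 for Mrpl43 through -0.38 for Mrpl57, -0.37 for Mrpl38 and -0.32 for Mrpl20 to -0.28 for Mrpl37, and the edgeR adjusted p from 0.0185 for Mrpl38 to 0.0464 for Mrpl37. About 33.4% of the Mrpl43 exon sequence overlaps Twnk, the gene of the mitochondrial DNA helicase, on the opposite strand.

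In the small subunit, Mrps26 had the lowest p of all members. Mrps26, a mitochondria-specific protein gene, was at 65.9 and 68.8 CPM in the control mice and at 46.6 and 47.1 CPM in the surgery mice. The mice of each group differed by far less than the groups did, and the log2 fold change was -0.52 ± 0.07 (SE) with an edgeR adjusted p of 0.0058. Mrps24, encoding a protein at the channel where mRNA enters, showed the largest decrease of the subunit, from 26.6 and 32.2 CPM to 18.6 and 16.2 CPM. Its log2 fold change was -0.76 ± 0.14 with an edgeR adjusted p of 0.0107. Mrps12, which encodes a protein of the decoding centre, went from 38.7 and 38.4 CPM to 28.7 and 25.0 CPM, a log2 fold change of -0.52 ± 0.10 with an edgeR adjusted p of 0.0134. Mrps34, mitochondria-specific and linked to human Leigh syndrome, went from 21.7 and 22.3 CPM to 15.0 and 15.5 CPM, a log2 fold change of -0.53 ± 0.11 with an edgeR adjusted p of 0.0166. Mrps34 is an uncertain case, since 63.4% of its exon sequence overlaps Mapk8ip3 on the opposite strand and 37.0% overlaps Nme3 on its own strand. Mrps24 shares 15.4% with Urgcp on its own strand.

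The 4 genes that rose all belong to the large subunit. Mrpl1, which encodes the mobile stalk beside the tRNA exit site, had 7.37 and 9.03 CPM in the control mice and 14.8 and 15.8 CPM in the surgery mice. Mrpl50, a mitochondria-specific protein gene, had 23.6 and 19.5 CPM in control mice and 33.8 and 35.2 CPM after surgery. Mrpl32, whose product is matured by the inner membrane m-AAA protease, had 11.6 and 8.53 CPM in control mice and 16.1 and 16.5 CPM after surgery. Both surgery mice lay above both control mice for each of these genes, as for 33.2% of all genes tested. The log2 fold changes were 0.90 ± 0.16, 0.68 ± 0.12 and 0.70 ± 0.17 (SE) in the order named, with edgeR adjusted p of 0.00997, 0.00998 and 0.0286. Mrpl35, which has a bacterial counterpart, had 18.2 and 18.4 CPM in control mice and 25.4 and 23.3 CPM after surgery, a log2 fold change of 0.41 ± 0.11 with an edgeR adjusted p of 0.0327.

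**Figure D2:**
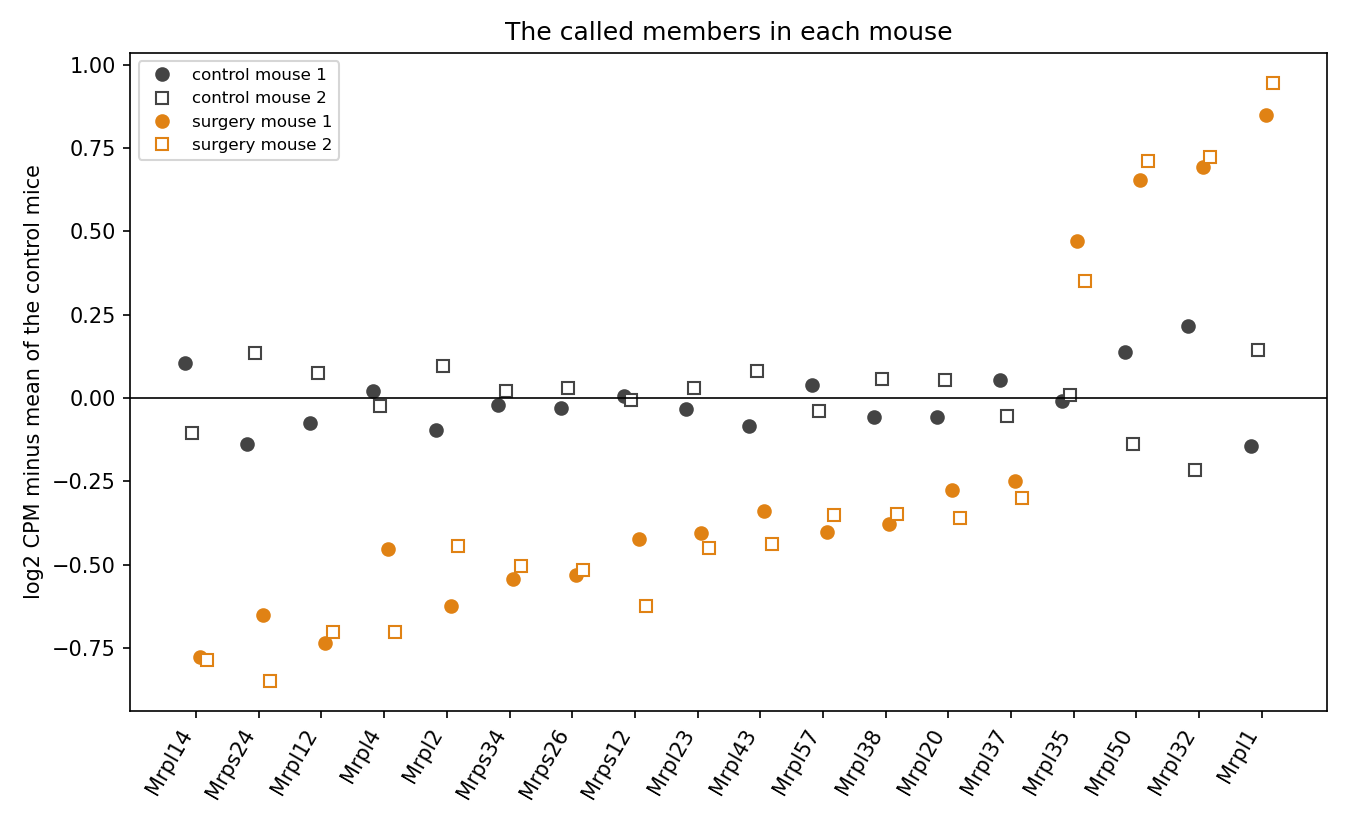
Log2 CPM of each mouse minus the mean of the control mice (y axis) for the 18 members that passed the test, ordered by fold change. Filled circles are mouse 1 and open squares mouse 2 of each group, grey for control and orange for surgery. In every gene both surgery mice lie on the same side of both control mice. The genes were chosen by the test between these groups, so this gap is no separate support.

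Several members were named for their roles. Mrpl44 (an RNase III-like protein) had a log2 fold change of -0.04 ± 0.13 (SE), and Mrpl45 (the protein that faces the inner membrane at the tunnel exit) one of -0.01 ± 0.12. Among the Mrps18 paralogs, Mrps18a had -0.16 ± 0.10, Mrps18b -0.03 ± 0.15 and Mrps18c 0.24 ± 0.31, the last at only 1.53 to 2.31 CPM. Mrps22 had 0.11 ± 0.15 and Mrps30 0.25 ± 0.14. None of these passed the test, with edgeR adjusted p between 0.242 and 0.943. Mrps36, whose product is now known as a component of the 2-oxoglutarate dehydrogenase complex rather than of the ribosome, had 0.06 ± 0.14 and did not pass (edgeR adjusted p of 0.798). Others were named for their fold change or level. Mrps31 had the highest log2 fold change of the small subunit at 0.28 ± 0.13 (edgeR adjusted p of 0.148), Mrpl47 had 0.36 ± 0.17 (edgeR adjusted p of 0.165), and Mrpl52 -0.40 ± 0.14 (edgeR adjusted p of 0.0742). Mrps27 and Mrpl54 missed the threshold narrowly, with edgeR adjusted p of 0.0502 and 0.0512 at log2 fold changes of -0.42 and -0.47; both were singled out after their values were seen.

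Fewer of these calls passed with 1 mouse left out. Each such fit sets 1 mouse against 2, so that the spread comes from the other group alone and the lone mouse is assumed to vary like it. Of the 18 members, 13 still passed without control mouse 1, 7 without control mouse 2, 13 without surgery mouse 1 and 10 without surgery mouse 2. The 7 that passed in every one of these fits were Mrpl1, Mrpl4, Mrpl12, Mrpl50, Mrps12, Mrps24 and Mrps26. Mrpl14, Mrpl20, Mrpl35, Mrpl37 and Mrpl57 passed in none of them, with edgeR adjusted p from 0.0502 for Mrpl14 to 0.19 for Mrpl20. Mrpl14 had log2 fold changes of -0.91 to -0.69 in these fits beside -0.80, and Mrpl23 -0.47 to -0.40 beside -0.43. The widest range among the 18 was that of Mrpl32, from 0.49 to 0.93. Over all genes the calls went from 2249 higher and 2201 lower to 1201 and 1207 without control mouse 2. Each of the 18 kept its direction in all of these fits. In all 18 both surgery mice lay beyond both control mice, so leaving out 1 mouse could hardly turn a sign.

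The direction of change followed the base composition of the transcripts. Across the 77 members, GC-poor transcripts tended to have positive and GC-rich transcripts negative log2 fold changes, with a Spearman rho of -0.75 and a Pearson r of -0.78. The same held over 17120 tested genes with a GC value (rho = -0.64). Genes are not independent replicates, and all points come from the same 4 libraries. The members that fell had a median GC content of 56.5%, and those that rose one of 41.7%. Between mice of the same group the relation over the members was weak, with a rho of 0.19 between the control mice and -0.23 between the surgery mice.

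The first 120 coding bases are shown for 4 members that differ in GC content. These are the 2 genes with the lowest p among those that fell in the small subunit and the large subunit, and the 2 genes with the lowest p among those that rose, with the bases read from the GENCODE M21 transcript with the longest coding part (GRCm38, 5′ to 3′). Capitals mark G and C.
Mrps26: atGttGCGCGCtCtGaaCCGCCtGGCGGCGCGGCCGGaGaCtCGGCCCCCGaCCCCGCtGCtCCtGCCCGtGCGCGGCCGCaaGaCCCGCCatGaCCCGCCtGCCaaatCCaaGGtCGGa
Mrpl12: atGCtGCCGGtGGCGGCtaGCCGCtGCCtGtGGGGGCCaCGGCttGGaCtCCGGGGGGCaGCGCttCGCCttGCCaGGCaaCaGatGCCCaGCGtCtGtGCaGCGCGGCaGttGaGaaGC
Mrpl50: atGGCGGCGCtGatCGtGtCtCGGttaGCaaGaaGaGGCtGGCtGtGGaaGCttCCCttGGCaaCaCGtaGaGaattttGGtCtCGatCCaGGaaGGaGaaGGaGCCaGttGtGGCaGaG
Mrpl1: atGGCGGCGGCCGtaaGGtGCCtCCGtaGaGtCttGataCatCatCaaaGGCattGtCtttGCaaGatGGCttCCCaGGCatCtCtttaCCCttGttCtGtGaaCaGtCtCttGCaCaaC
Mrps26 (chr2:130563742-130568695, plus strand) has 73.3% G and C in this stretch and 64.0% over its coding sequence, and Mrpl12 (chr11:120484613-120489065, plus strand) has 70.0% and 59.6%. Both fell. Mrpl50 (chr4:49512596-49521093, minus strand) has 55.0% and 45.8%, and Mrpl1 (chr5:96209493-96266727, plus strand) 50.0% and 41.5%. Both rose. The first 120 coding bases alone did not separate the called members. Mrpl23, which fell, has 40% G and C there, and Mrpl32, which rose, has 60.8%, while Mrpl14 and Mrpl20, which fell, have 60% each.

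Split by GC content, the 26 members of lowest GC (39.8% to 47.6%) included all 4 that rose and 1 that fell. Of them 7 (26.9%) had an unadjusted edgeR p below 0.05, and their median log2 fold change was 0.08. The 6327 genes tested from 28.7% to 47.7% GC, some of them poorer in GC than any member, had a median of 0.35. Among these genes 47.4% had an unadjusted edgeR p below 0.05, and 2015 were higher and 62 lower. The 25 members of middle GC had 0 higher and 3 lower by edgeR's test (7 had an unadjusted p below 0.05 in either direction, or 28%, beside 24% of all genes in that range) and a median of -0.05. All genes in that range had a median of -0.02, with 190 higher and 352 lower of 4430. The 26 members of highest GC (52.4% to 60.8%) had 0 higher and 10 lower and a median of -0.35. Of them 17 (65.4%) had an unadjusted edgeR p below 0.05. The 6363 genes tested from 52.4% to 75.5% GC, some of them richer in GC than any member, had a median of -0.25. Among these genes 42.0% had an unadjusted edgeR p below 0.05, and 39 were higher and 1786 lower. Mrpl57 stood apart among the genes that fell, with 44.6% GC over its transcripts and 60.2% over its coding sequence.

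**Figure D3:**
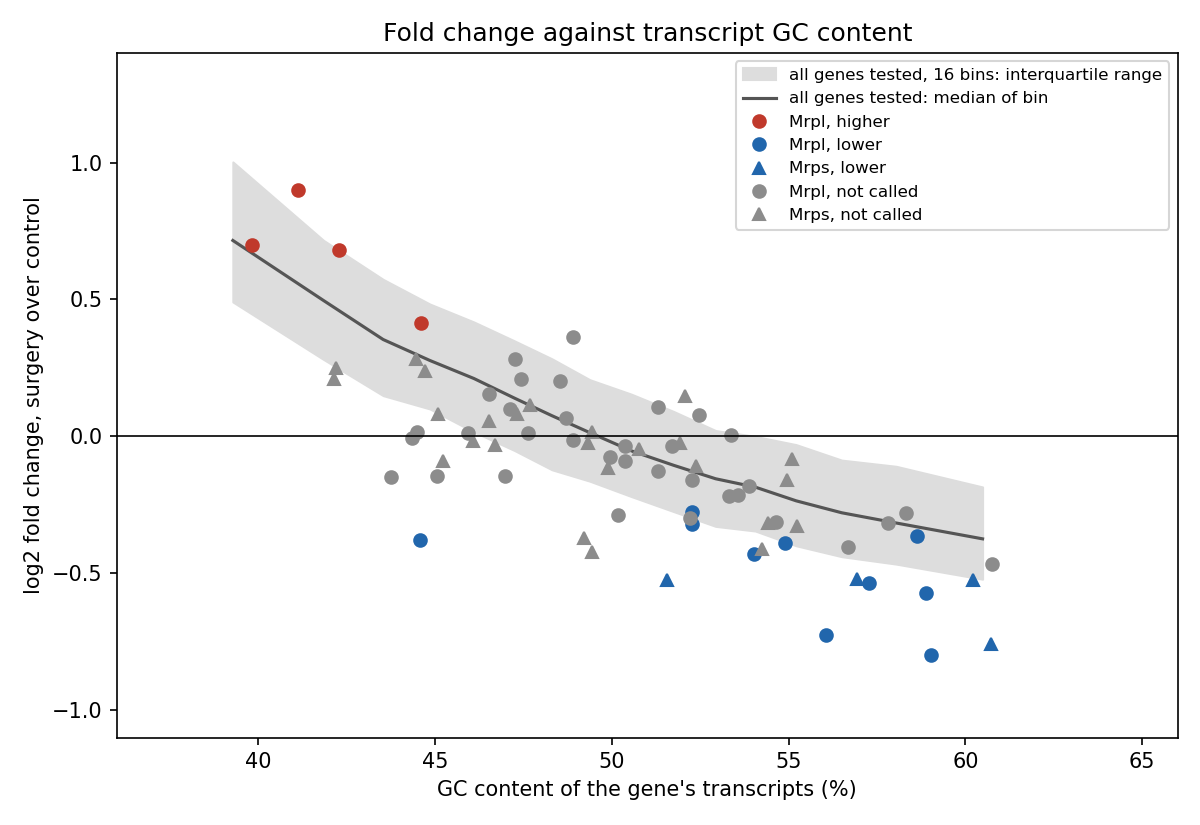
Log2 fold change (y axis) against GC content of the gene's transcripts in percent (x axis). Circles are Mrpl and triangles Mrps genes, coloured by call, and the grey line and band are the median and interquartile range of all tested genes in 16 GC bins. The members follow the downward course of all genes, with the 4 red genes on the left side among grey genes and Mrpl57 as the blue point far to the left.

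When the fit was corrected for transcript length and GC content, 2 of the 18 calls remained, both lower. Mrpl57 had a corrected log2 fold change of -0.62 with an edgeR adjusted p of 0.038, larger than the uncorrected -0.38, and Mrps26 had -0.39 with an edgeR adjusted p of 0.0441. In both, the coding sequence is richer in GC than the transcripts on which the correction rests. The values are 60.2% and 44.6% for Mrpl57, and 64.0% and 51.6% for Mrps26. The part of this gap in the 2 calls was not tested. Mrpl12 had -0.45 after correction (edgeR adjusted p of 0.0898), Mrps24 -0.37 (0.148) and Mrpl14 -0.46 (0.222). Mrpl1 had 0.44 (edgeR adjusted p of 0.186), Mrpl50 0.30 (0.16) and Mrpl32 0.14 (0.643). Mrpl38 lost nearly all of its difference, at -0.01. The 18 genes kept their signs under the correction, whereas the median became -0.02 for the large subunit and -0.09 for the small subunit, beside 0.04 over all genes. Over all genes the correction left 249 higher and 169 lower. The correction used the GC content of the transcripts, and after it the rho of the members with the GC content of their coding sequence was still -0.36, beside -0.03 over all genes. Beyond this correction, the part of base composition in the group difference was not tested.

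**Figure D4:**
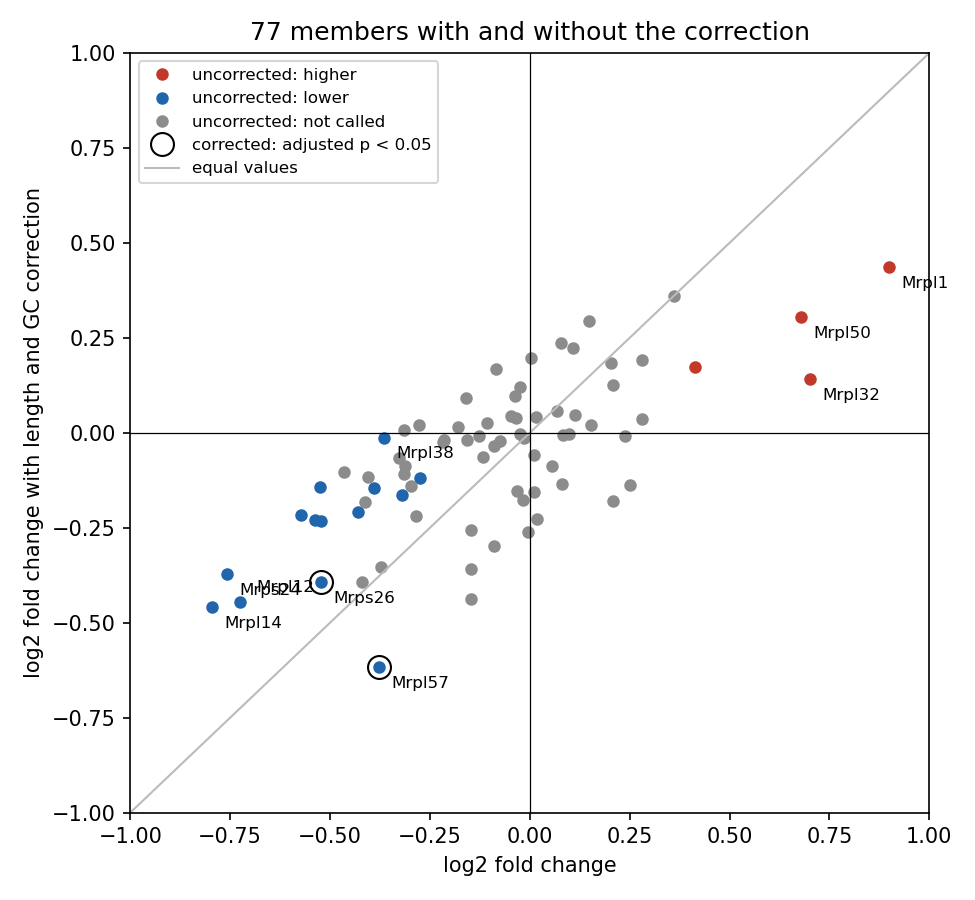
Log2 fold change with the length and GC correction (y axis) against that without it (x axis) for the 77 members, coloured by the uncorrected call, with equal values on the grey line. Black rings mark Mrps26 and Mrpl57, the genes that passed after correction, and most coloured points lie closer to 0 on the y axis than on the x axis.

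Levels per length spanned a wide range within each subunit although the proteins are built into the ribosome in single copies, Mrpl12 aside. The reads of all exons were divided by the length of the transcript with the longest coding part, so the order of the genes holds for that choice of length. Mean levels in the large subunit ran from 2.92 CPM per kb of transcript for Mrpl47 to 48.0 CPM per kb for Mrpl42, with a median of 14.9. Next to Mrpl42 were Mrpl52 at 45.7 and Mrpl20 at 44.8 CPM per kb. In the small subunit they ran from 3.13 CPM per kb for Mrps18c to 39.3 for Mrps21, with a median of 13.3, and Mrps18a and Mrps15 followed Mrps21 at 38.4 and 37.7 CPM per kb. Of these 6 genes only Mrpl20 passed the test. The 4 genes that rose were mostly of low level per length, at 3.31 CPM per kb for Mrpl1, 4.37 for Mrpl32, 5.73 for Mrpl35 and 13.3 for Mrpl50. Over the summed length of all exons, a scale added after the data were seen, the order was different. The highest levels were then those of Mrpl41 (38.6 CPM per kb) and Mrps12 (31.5) and the lowest those of Mrpl33 (0.781) and Mrps30 (1.61), with Mrpl42 at 8.68, Mrps18a at 9.19 and Mrps21 at 26.0 CPM per kb of exon. Summed over the large subunit, the level was 1261 CPM in each control mouse and 1181 and 1141 CPM in the surgery mice, a log2 ratio of the means of -0.12. Over the small subunit it was 721 and 727 CPM in control mice and 677 and 636 CPM in surgery mice, a log2 ratio of -0.14. Both sums were lower in each surgery mouse than in each control mouse, as was the sum over all genes tested, with a log2 ratio of -0.05. With scaling by library totals the ratio of the large subunit was -0.07.

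**Figure D5:**
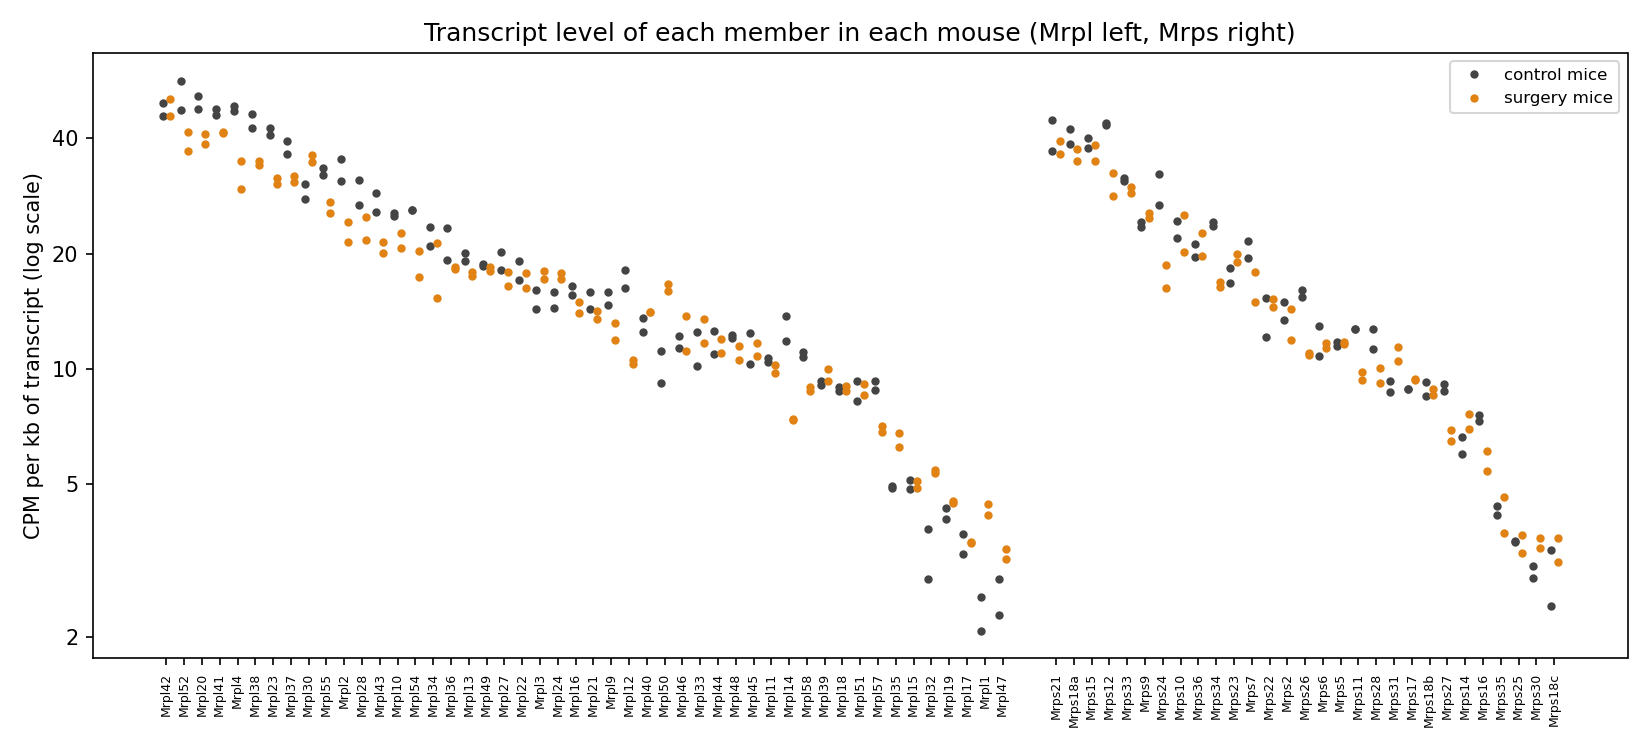
Level of each member in each mouse, in CPM per kb of transcript (log scale, y axis), ordered by mean level within the Mrpl genes (left) and Mrps genes (right), with control mice in grey and surgery mice in orange. Levels reach from below 5 to above 40 CPM per kb in the large subunit, a range far wider than the gap between the groups within a gene.

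Grouping the members by ancestry rather than by symbol gave similar counts. Among 45 members with a bacterial homologue 3 rose and 8 fell, and among 29 mitochondria-specific members 1 rose and 6 fell, with median log2 fold changes of -0.11 and -0.03. The shares that rose were 6.67% and 3.45%, beside 13.1% of all genes, and the shares that fell 17.8% and 20.7%, beside 12.8%. Mrps18a and Mrps30 are part of the large subunit in the known structure, and moving them there changed no count, since neither passed. The genes of cytosolic ribosomal proteins, the counterpart outside mitochondria, had 44 lower and 4 higher of 82 and a median log2 fold change of -0.29, with a median GC content of 52.0% beside 50.4% in the members. The difference between these families was not tested.

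Some member sequences also occur elsewhere in the genome. At a window length of 75 bases, 29 members share exact sequence with a gene elsewhere, 6 of them over more than 10% of their windows, and these include Mrpl23 at 10.1% (shared with 88 other genes), Mrps18b at 12.1% (Gm13552) and Mrps36 at 11.3%. In addition 27 members overlap an exon of a gene on the opposite strand and 7 one on the same strand. The counts of these genes are uncertain to that extent. The 30 members with neither a copy nor an overlap had 7 lower (Mrpl2, Mrpl4, Mrpl20, Mrpl37, Mrpl38, Mrpl57 and Mrps12) and 3 higher (Mrpl1, Mrpl32 and Mrpl50), where 12.8% and 13.1% of all genes were lower and higher.

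Promoters of the members carried motifs of factors known for nuclear genes of mitochondrial proteins. RefSeq promoter windows (GRCm38.p6, 250 bases before to 50 after the start) were matched for 68 of the 77 members and for 13532 protein-coding genes of the table, and both strands were searched. The NRF-1 motif GCGCANGCG was present in 23.5% of members and 12% of all genes, the ETS motif CCGGAAG, bound by GABPA, in 36.8% and 15.7%, and the YY1 motif AAGATGGC in 17.6% and 4.17%. The Sp1 motif GGGCGG was found in 50.0% and 60.2%. At least 1 of the NRF-1, ETS and YY1 motifs was in 63.2% of members and 27.7% of all genes. Matches of different motifs overlapped in 2 of the 74 member windows. Of 11 members that fell and had a window, 4 held the NRF-1 motif, 4 the ETS motif, 3 the YY1 motif and 9 the Sp1 motif. Of the 4 that rose these counts were 1, 0, 2 and 2, and of the 53 that did not pass 11, 21, 7 and 23. The Sp1 share was thus 81.8% in the members that fell and 43.4% in those that did not pass, a difference that was not tested. A match is a stretch of letters and was not tested as a binding site.

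The sequence upstream of 3 genes that fell is shown with matches to the NRF-1, ETS and YY1 motifs in capitals, while Sp1 matches, which Mrpl43 and Mrps12 also hold, are not marked (5′ to 3′ on the strand of the gene, in RefSeq GRCm38.p6 coordinates, ending before the first base of the gene).
Mrpl12 (NRF-1, reverse strand): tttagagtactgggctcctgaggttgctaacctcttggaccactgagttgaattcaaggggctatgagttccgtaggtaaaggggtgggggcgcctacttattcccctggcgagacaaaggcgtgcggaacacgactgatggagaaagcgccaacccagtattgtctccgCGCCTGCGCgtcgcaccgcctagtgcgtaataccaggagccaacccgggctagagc
Mrpl43 (ETS): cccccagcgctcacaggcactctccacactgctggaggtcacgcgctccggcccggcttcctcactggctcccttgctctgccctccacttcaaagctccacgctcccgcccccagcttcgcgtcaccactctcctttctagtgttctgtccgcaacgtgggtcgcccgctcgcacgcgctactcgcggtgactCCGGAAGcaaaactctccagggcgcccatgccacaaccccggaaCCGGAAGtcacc
Mrps12 (YY1, reverse strand): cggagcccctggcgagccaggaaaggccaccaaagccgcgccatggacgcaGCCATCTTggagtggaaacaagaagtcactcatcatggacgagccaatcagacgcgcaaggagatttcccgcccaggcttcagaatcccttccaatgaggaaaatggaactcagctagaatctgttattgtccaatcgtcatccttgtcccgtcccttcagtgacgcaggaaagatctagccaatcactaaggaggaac
They lie at chr11:120484387-120484612 (plus strand), chr19:45006443-45006692 (minus strand) and chr7:28741822-28742071 (minus strand). Mrpl43 holds its motif at 2 places.

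Many members have a neighbour that starts nearby and is read in the opposite direction. A protein-coding neighbour starting within 1000 bases on the other strand was found for 18 members (23.4%), against 8.13% of 17805 protein-coding genes. In 12 of these 18 pairs both log2 fold changes had the same sign, and no pair had both genes past the test. Only 7 of the members and 3 of the partners passed it. The same counts were not made for divergent pairs outside the members, so these have no background beside them. Mrps12 had -0.52 and Sars2, the mitochondrial seryl-tRNA synthetase gene 172 bases away, -0.41 (edgeR adjusted p of 0.0789). Mrpl50 rose by 0.68 while its neighbour Zfp189 had 0.14 (edgeR adjusted p of 0.371), and Mrpl32 rose by 0.70 while Psma2, a proteasome subunit gene, had 0.01 (edgeR adjusted p of 0.96). Mrpl49 had -0.03 and did not pass, while Fau, a cytosolic ribosomal protein gene 59 bases away, fell by 0.48 (edgeR adjusted p of 0.00616).

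Other nuclear genes of mitochondrial gene expression were taken from 4 lists. Of the 56 tested genes in them, 7 rose and 9 fell, shares near those of all genes (13.1% and 12.8%). These counts were 4 and 2 without control mouse 2, and 5 and 2 genes fell without surgery mouse 1 and surgery mouse 2. Among 5 mitoribosomal proteins without an Mrp symbol, Ptcd3 rose by 0.42 on the log2 scale, Gadd45gip1 and Aurkaip1 had -0.60 and -0.35 and fell, and Dap3 and Chchd1 did not pass. Of 26 genes of ribosome assembly and rRNA modification, Mterf3 (0.78) and Gtpbp10 (0.67) rose, and Rpusd3 (-1.01), Rcc1l (-0.59), Mpv17l2 (-0.49) and Dhx30 (-0.45) fell. Of 14 translation factor genes, the initiation factor Mtif2 (0.69) and the elongation factor Guf1 (0.42) rose, and Tufm, the gene of the elongation factor that delivers aminoacyl-tRNA, fell (-0.60). Of 11 genes of mitochondrial transcription and DNA maintenance, Tfb2m (0.74) and Mterf1b (1.19) rose, and the RNA polymerase gene Polrmt (-0.38) and the DNA polymerase gene Polg (-0.26) fell. The genes that rose here had 40.4% to 43.3% GC and those that fell 53.3% to 61.8%, and none of the 16 passed after the length and GC correction, in which 418 genes passed in all.

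The RNAs that the mitoribosome contains or translates were mostly higher after surgery. The rRNA of the small subunit, mt-Rnr1, was at 930 and 681 CPM in the control mice and at 2880 and 2785 CPM in the surgery mice. The rRNA of the large subunit, mt-Rnr2, was at 1327 and 1102 CPM in control mice and 3544 and 3632 CPM after surgery. Both rose, with log2 fold changes of 1.81 ± 0.14 (SE) and 1.56 ± 0.10 and edgeR adjusted p of 0.0042 and 0.00393. The libraries were enriched for poly(A) RNA, and these are rRNA levels among the RNA kept by that step. Of 12 mitochondrial mRNAs, 11 rose, with a median log2 fold change of 1.09, and mt-Nd4l had 0.52 (edgeR adjusted p of 0.377). Their mean levels in the control mice were very uneven, from 1.19 CPM for mt-Nd4l and 1.37 CPM for mt-Nd3 to 12402 CPM for mt-Co1. Sequence shared with other genes was searched for in the members only, and its part in these levels was not tested. The 12 mRNAs are poor in GC, with a median of 37.4%. After the length and GC correction, both rRNAs and mt-Nd6 were still higher, at 0.87, 0.58 and 0.90, mt-Nd4 was lower at -0.41 (edgeR adjusted p of 0.0438), and the other mRNAs did not pass.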

How the data were processed

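Hippocampal RNA of 2 control and 2 surgery mice was measured by paired-end sequencing of oligo(dT)-enriched RNA. The authors deposited read counts per gene after mapping to mm10 with HISAT; the submitters' processing notes list HISAT2 2.1.0, Bowtie2 2.2.3, TopHat2 and HTSeq 0.6.0, and the strand setting is not given in the sources used here. The authors also deposited a mean signal, a fold ratio, a log2 fold change and p-values of their own comparison, none of which was used. The labels gave the groups.

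Counts were tested with edgeR 4.0.16 (R 4.3.3): a minimum count of 10 in the filter, TMM scaling, the quasi-likelihood test on all 4 libraries with condition as the only term, and Benjamini-Hochberg adjustment over 17144 genes, with a call at an adjusted p below 0.05. CPM are TMM-scaled, and log2 CPM use a prior count of 2. Mice of a group differed beyond sampling noise (chi-square per degree of freedom of 12.3 in control and 7.77 in surgery). Alternatives were DESeq2 1.42.0, other scaling, no filter, a correction for length and GC content (smooth terms with mgcv 1.9.3), a replicate block, and leaving out each mouse. Fits were also run on simulated counts with planted fold changes, and the outcome is not reported here. Length, GC content, overlaps and shared windows came from GENCODE M21 (GRCm38), in which 71 of the 77 members had the coordinates of the table.

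The members and gene lists were chosen with earlier results of these data known. Named genes were all members past the threshold, the 3 highest and 3 lowest fold changes, the 3 highest and the lowest level per length in each subunit, a list of members chosen by role, and genes past the threshold in the pathway lists. Mrpl53 was not analysed here.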

Additional observations from a re-analysis of the deposited data

How the results depend on the processing

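All members passed the filter on low counts, and the part of depth in the calls was not tested. Of the 216 combinations of a called member and an alternative, 142 kept the call, 74 lost it and 0 changed sign, and 16 of the 18 calls were lost with the length and GC correction. A change of sign was hardly possible where a single mouse was left out, since the groups did not overlap in any called member. The cause of the losses was not tested. Dividing levels by the length of all exons, added after the data were seen, moved the median from 14.9 to 9.72 CPM per kb in the large and from 13.3 to 7.13 in the small subunit.

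The replicate numbers were not said to mark a shared animal or batch, and same-numbered mice had a correlation of deviations of 0.224. With the replicate number as a block, 4 large subunit genes were higher, 11 lower, and 5 small subunit genes lower, and no member call was lost. With the block and the correction together, 0 and 4 large subunit genes were higher and lower and 3 small subunit genes lower, the large subunit median was -0.019, 0 and 1 members passed the fold limits as higher and lower, 1580 and 1120 genes were higher and lower over all, and 3 and 3 nuclear and 7 mitochondrial transcripts of the pathway lists were higher, lower and higher. Of the 18 calls, 4 were kept in that fit: Mrpl12, Mrpl57, Mrps24 and Mrps26, with edgeR adjusted p of 0.0226, 0.00177, 0.0472 and 0.00262. In that fit the signs turned for Mrpl42 (-0.23), Mrpl44 (0.098), Mrps15 (0.17), Mrps18a (0.092), Mrps18b (0.12), Mrps18c (-0.0064), Mrps21 (0.029), Mrps30 (-0.14) and Mrps36 (-0.089).

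With the correction alone, 0 and 1 large subunit genes were higher and lower and 1 small subunit gene lower, 0 and 1 passed the fold limits, 249 and 169 genes were called over all, 0 and 0 nuclear genes of the lists were higher and lower, 3 mitochondrial transcripts were higher and 1 (mt-Nd4) lower, and the large subunit median was -0.020. The signs of Mrpl42 (-0.23), Mrpl44 (0.097), Mrps15 (0.17), Mrps18a (0.091), Mrps18b (0.12), Mrps18c (-0.0091), Mrps21 (0.025), Mrps30 (-0.14) and Mrps36 (-0.088) turned. None of these genes passed the test in either fit.

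Scaling by library totals gave medians and log2 ratios of sums of -0.089 and -0.073 in the large subunit and a median of 0.0011 and a log2 ratio of -0.10 in the small subunit, and turned Mrpl44 (0.011), Mrpl45 (0.033) and Mrps18b (0.022). DESeq2 called 6 large subunit genes lower, with the calls of Mrpl14, Mrpl20, Mrpl35, Mrpl37 and Mrpl57 lost, and turned Mrpl42 (-0.0030). Without a filter, 2 large subunit genes were higher and 5 lower, 4 and 4 nuclear genes of the lists and 1315 and 1350 genes over all were called, and Mrpl2, Mrpl20, Mrpl32, Mrpl35, Mrpl37, Mrpl43 and Mrpl57 lost their calls. At an adjusted p of 0.01, 2 large subunit genes were higher, 1 was lower and 1 small subunit gene was lower, and at 0.1, 8 small subunit genes were lower. Over members without copies or overlaps, 6 large subunit genes and 1 small subunit gene were lower and the large subunit median was -0.28.

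Leaving out single mice gave 2 to 3 large subunit genes higher and 2 to 7 lower, 3 to 5 small subunit genes lower, 12 to 13 mitochondrial transcripts higher, 1 to 3 and 3 to 5 members past the fold limits, 1201 to 2025 and 1207 to 2080 genes over all, and 4 to 6 and 2 to 7 nuclear genes of the lists. Medians ran from -0.18 to -0.084 in the large subunit and from -0.17 to 0.0070 in the small subunit, and log2 ratios of sums from -0.14 to -0.095 and from -0.19 to -0.10. Values of both signs were seen for Mrpl42 (-0.076 to 0.097), Mrpl44 (-0.14 to 0.065), Mrpl45 (-0.15 to 0.12), Mrps18b (-0.089 to 0.029), Mrps21 (-0.24 to 0.027), Mrps22 (-0.052 to 0.28) and Mrps36 (-0.066 to 0.16).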
